A study of Mus musculus with 50 samples.

Results

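The 70 chaperone genes described here were all rows of the expression table with a symbol that starts with Hsp, Dnaj, or Cct and a digit, without Hspg2, which encodes perlecan, a matrix protein that only shares the prefix. They were 70 of 11879 rows: 39 J protein genes (4 Dnaja, 11 Dnajb and 24 Dnajc), 13 Hspa (Hsp70 family), 7 Cct, 3 Hsp90 and 2 Hspb (small heat shock) genes, and 6 with other symbols. Hspb11, an intraflagellar transport gene, and Hspbap1 were taken in by their symbols.

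Molecular chaperones bind proteins that are not yet folded, or have lost their fold, and most use ATP to let them fold. Hsp70 proteins are loaded by J proteins and hand some clients to Hsp90, the ring-shaped CCT complex folds actin and tubulin, and the endoplasmic reticulum and the mitochondria have Hsp70 and other chaperones of their own. Most families hold constitutive genes, which growing cells always transcribe, and stress-induced genes, which the factor HSF1 switches on after heat or other damage to proteins. Hspa8 (Hsc70) is the constitutive Hsp70 of the cytosol, and Hspa1a and Hspa1b are its strongly inducible relatives.

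The 50 samples were single iRunx1-iHECs, hemogenic endothelial cells made in culture from C57BL/6 mouse embryonic stem cells. The stem cells carried a Runx1 cassette with a hygromycin resistance gene in the Rosa26 locus, which doxycycline induces, and clones were picked after hygromycin selection. They were differentiated through embryoid bodies with BMP4 and VEGF and then in medium conditioned by AFT024 stromal lines, with doxycycline added, dispersed with trypsin and sorted as CD31+CD41lowCD45-c-kit+CD201high cells. All cells were of this 1 group, with no untreated, heat-shocked or cassette-free cells, and the labels give no culture or batch, so the 50 cells count as 1 unreplicated sample and no test between groups was possible. Cells are named below by the 2 numbers of their titles (cell 2-9, for example), which the labels leave unexplained. Titles starting with 1, 2, 3 and 4 belong to 11, 14, 13 and 12 cells.

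The sort and the cell type held in the table. All 50 cells had the sort markers Pecam1 (CD31) and Procr (CD201) above TPM 1, while Kit passed it in 47, Itga2b (CD41) in 40 and Ptprc (CD45) in 0. Of 6 endothelial markers, all were above TPM 1 in at least 45 cells. No mesenchymal or erythroid marker with a row passed TPM 1 in more than 4 cells. Of the megakaryocyte and platelet genes, Pf4 passed it in 17 cells, Gp9 in 3 and Ppbp in 0, and the blood genes Laptm5, Coro1a and Cd53 in 48, 21 and 10. The 4 pluripotency markers had no row, and since the selection of rows is not known, a gene with no row cannot be read as not expressed, here or below. TPM, a measure of transcript abundance, is scaled by gene length and by the cell's total, so levels of different genes can be set side by side, but it keeps no read depth, which is unknown here. The number of genes above TPM 1 was lowest in cell 4-6, at 2400, then 4326 in the next cell, with a median of 6223.5 and a highest of 8615. A 0 in the table is read below only as listed at 0.

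Hspa1a and Hspa1b are near copies, which bears on every value given for them. Hspa1b (GRCm38 chr17:34956436-34959238, minus strand) and Hspa1a (chr17:34969190-34972156, minus strand) lie 9951 bases apart, and Hspa1l, a testis Hsp70, starts 546 bases beyond Hspa1a on the plus strand. Their coding sequences were identical at 99.5% of aligned bases, with 7 mismatches and 3 gap bases, against 74.8% for Hspa1a and Hspa8, so reads of the pair may have been split between the copies. Their promoters (RefSeq, GRCm38.p6, 250 bases before to 50 bases after the start) were identical at 98.7% of bases. The stretch from 150 to 31 bases before the start is shown because it holds their copy of the core of the heat shock element, the HSF1 recognition sequence, searched as GAANNTTC or TTCNNGAA (each reads the same on both strands, and matches may overlap). The core is in capitals, 104 bases before the start, and the stretch of Hspa1b (chr17:34959269-34959388, minus strand) has the same bases as that of Hspa1a (chr17:34972187-34972306, minus strand).
Hspa1a and Hspa1b: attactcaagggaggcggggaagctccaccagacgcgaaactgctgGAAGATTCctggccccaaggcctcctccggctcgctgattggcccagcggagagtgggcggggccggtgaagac

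The same letters were found in the promoters of 16 of the 58 chaperone genes that had one in the RefSeq table (27.6%), against 15.1% of all 32851 promoters and 17.0% of the 27025 genes with a promoter. The 16 genes were Cct2, Cct5, Cct6a, Dnaja1, Dnaja4, Dnajb4, Dnajb6, Dnajc10, Dnajc27, Hspa1a, Hspa1b, Hspb6, Hspb8, Hspd1, Hspe1 and Hsph1. The 12 genes with no entry in the table were Hspa8, Hsp90ab1, Hsp90aa1, Cct4, Hspa9, Hspa13, Dnajc2, Dnajc5, Dnajc11, Dnajc12, Dnajc18 and Dnajc30. A match is a description of the letters, not a site. Windows of 30 bases are shown for 5 of them, of which Hsph1 was found in 15 cells and the others in 49 or 50. Hspe1 and Hspd1, the mitochondrial chaperonin pair, share 1 window read on opposite strands (chr1:55088053-55088082, plus strand for Hspe1), with 3 overlapping matches, a number reached by 0.256% of all promoters. This window also lies in an untranslated exon of a longer annotated Hspd1 transcript. The windows of Hsph1 (chr5:149636351-149636380, minus strand), Dnaja1 (chr4:40722333-40722362, plus strand) and Cct2 (chr10:117063399-117063428, minus strand) hold 1 match each. The whole promoter of Hsph1 holds 3 matches, as those of Hspe1 and Hspd1 do, and the other 2 of Hsph1 lie outside its window.
Hspe1: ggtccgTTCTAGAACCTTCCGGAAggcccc
Hspd1: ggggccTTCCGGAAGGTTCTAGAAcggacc
Hsph1: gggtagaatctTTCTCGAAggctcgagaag
Dnaja1: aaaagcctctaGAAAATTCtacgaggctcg
Cct2: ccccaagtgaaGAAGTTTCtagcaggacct

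Genes with the same letters in the promoter ranged from 1 cell above TPM 1 (Hspa1a) to all 50 (Hspe1, Dnaja1, Dnajb6, Cct2 and Cct5). The median number of cells was 33 over the 16 genes with a match and 33.5 over the 42 without, and the median of their median levels was 8.93 TPM with a match and 19.2 TPM without.

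Chaperone transcripts were widely detected. Of the 70 genes, 45 (64.3%) were above TPM 1 in at least 25 of the 50 cells, where 53.2% of all rows were, and 16 (22.9%) were above it in every cell, where 7.15% of all rows were. At the other end, 6 genes were above TPM 1 in at most 10% of the cells (16.6% of all rows): Hspa12a in 5 cells, Hspa1b in 3, Dnajc28 in 2, Hspa1a in 1, and Hspa1l and Dnajb13, which encodes a sperm flagellum J protein, in 0. Dnajb13 alone was listed at 0 in all cells, as were 4.34% of all rows. By the rule of 3 counts, a true share of up to 6% can give 0 of 50 cells, and the exact two-sided interval ends at 7.11%.

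**Figure D1:**
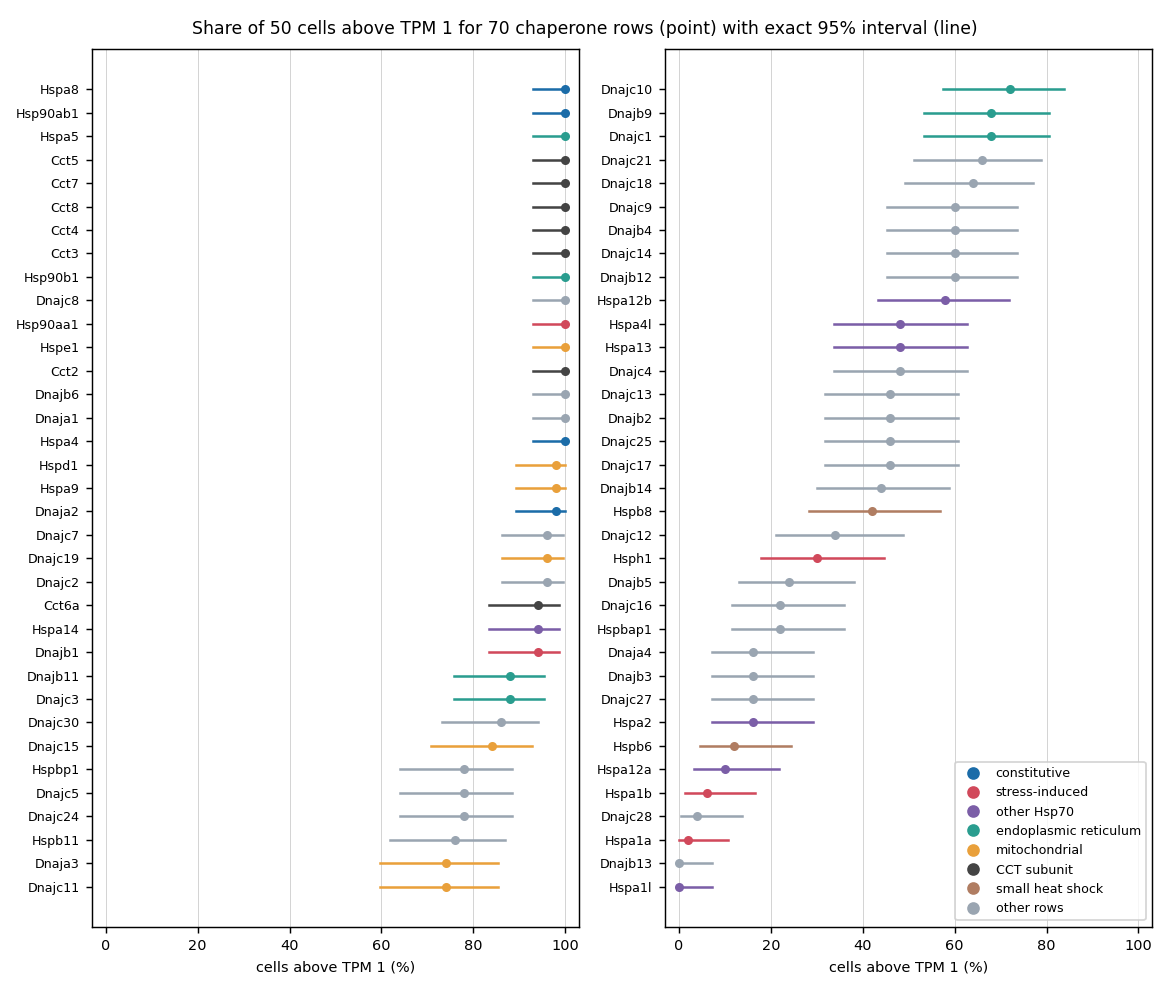
Share of the 50 cells above TPM 1 (x axis, percent) for each of the 70 chaperone genes, ordered from the highest share to the lowest over both panels, with the exact 95% interval as a line and the role as the color. The constitutive genes (blue) lie at 98% to 100%, while the stress-induced genes (red) run from 100% (Hsp90aa1) down to 2% (Hspa1a).

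The 70 genes together took a median of 1.36% of the TPM of a cell. The lowest value was 0.674% in cell 4-6, the cell with the fewest genes, the next was 0.840%, and the highest was 2.108% in cell 4-8. The number of chaperone genes above TPM 1 in a cell ran from 28 to 59 with a median of 45.5, and over the 50 cells it followed the number of all genes above TPM 1 (Spearman's rho 0.881), which the summed share hardly did (rho 0.167). Shares of cells are therefore given here with the exact Clopper-Pearson 95% interval, which covers counting error over cells only, and the part that genes per cell had in them was not tested.

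Hspa8 led the family. Hspa8 (chr9:40800984-40810087, plus strand) was at 680 TPM in its lowest cell (2-6), a median of 2969 TPM (exact 95% interval of the median 2378 to 3487) and 10923 TPM in its highest (3-11). No cell lacked it, and its median ranked 22 among all rows of the table. It was the most abundant chaperone transcript in 40 cells, Hsp90ab1 in 9 and Cct3 in 1. Hspa8 made up a median of 23.2% of the summed chaperone TPM, with a range of 8.14% to 59.7%, and Hspa8 and Hsp90ab1 together 37.1%. Split by the 4 first title numbers, its medians were 2512 to 3710 TPM.

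Hspa1a and Hspa1b were listed at 0 in most cells. Hspa1a passed TPM 1 in 1 of 50 cells (2%, exact interval 0.0506% to 10.6%) and above 0 in 5, and its highest value was 209 TPM in cell 2-9. Hspa1b was above TPM 1 in 3 cells (6%, 1.25% to 16.5%) and above 0 in 6. Its values in those 3 were 41.4 TPM in cell 2-9, 2.43 TPM in cell 4-10 and 1.35 TPM in cell 3-14. Because reads of the copies may be split, the pair was also taken as 1: either gene was above TPM 1 in the same 3 cells (6%, 1.25% to 16.5%), either was above 0 in 8 cells, and both were listed at 0 in the other 42. Without cell 2-9 the share of Hspa1a was 0% and that of Hspa1b was 4.08%.

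Hspa8 exceeded the sum of Hspa1a and Hspa1b in 50 of 50 cells. The median difference of Hspa8 minus the sum was 11.50 on the log2(TPM + 1) scale (95% interval 11.11 to 11.69), and in the 42 cells with the pair at 0 it is the level of Hspa8 itself, so it is no fold. The smallest difference was 3.24, in cell 2-9, where Hspa8 was 9.50 times the sum. Hspa1l was below TPM 1 in all cells, and its 1 value above 0, 0.909 TPM, was also in cell 2-9. The coding sequences of Hspa1l and Hspa1a were identical at 83.2% of aligned bases, and whether they shared reads was not tested.

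Cell 2-9 thus had the highest value of each of the 3 linked Hsp70 genes of chromosome 17, and it was looked at more closely for that reason, after its values were seen. The other stress-induced chaperones were not at their highest in it, and related genes lay on both sides of their medians. Hsp90aa1 was at 258 TPM there, with 36 cells higher, Dnajb1 at 97.0 TPM, with 27 cells higher, and Hsph1 at 15.3 TPM, with 10 cells higher. Hsf1, which encodes the heat shock factor, was at 264 TPM against a median of 51.2 TPM, and 1 cell was higher. Bag3, an HSF1 target that couples Hsp70 to autophagy, was at 20.4 TPM with 23 cells higher, while Chordc1, which encodes an Hsp90 co-chaperone, was at 142 TPM (median 80.03) and Hspe1 at 434 TPM (median 302), each with 9 cells higher. Of the immediate-early genes, Jun was at 309 TPM (median 157) with 11 cells higher, Fos was at 197 TPM with 23 cells higher, and Junb, Ier2, Egr1 and Atf3 were below their medians with 28, 29, 32 and 36 cells higher. Dnaja1 was at 71.5 TPM with 39 cells higher. The cell had 7500 genes above TPM 1, and 6 cells had more.

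The other constitutive and stress-induced pairs differed from this pattern and from each other. For Hsp90, the constitutive Hsp90ab1 ran from 171 TPM (cell 4-13) to 3072 TPM with a median of 1899 TPM, and the inducible Hsp90aa1 from 52.9 to 953 TPM with a median of 323 TPM, both in all 50 cells. Hsp90ab1 was the higher in 48 cells, by a median of 2.52 (log2, 95% interval 2.184 to 2.793), and lower in 2. The inducible Hsp90 gene was therefore present in each cell, and the median of its constitutive partner was 5.89 times its own.

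For the Hsp110 nucleotide exchange factors, which reset Hsp70, Hspa4 was above TPM 1 in all 50 cells (2.296 to 228 TPM, median 74.1). Its inducible relative Hsph1 was above TPM 1 in 15 cells (30%, 17.9% to 44.6%), with a median of 0 and a highest value of 115 TPM in cell 4-8. Hspa4 was higher in 47 cells and lower in 3, so Hsph1 was found in a minority of cells and Hspa4 in all.

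For the J proteins that load Hsp70, Dnaja2 was above TPM 1 in 49 cells (0.830 to 393 TPM, median 140) and the heat-inducible Dnajb1 (Hsp40) in 47 (94%, 83.5% to 98.7%; 0.305 to 313 TPM, median 107). Here the pair nearly overlapped: Dnaja2 was higher in 34 cells and Dnajb1 in 16, the median difference was 0.68 (log2, 0.09 to 1.24), and over the 4 first title numbers it ran from -0.23 to 1.09. Over the 50 cells rho within a pair was -0.09 for Hsp90ab1 and Hsp90aa1, 0.13 for Hspa4 and Hsph1 and -0.21 for Dnaja2 and Dnajb1.

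Across the lists, the 4 constitutive genes had a median share of 100% (98% to 100%) and the 5 stress-induced genes with a row 30% (2% to 100%). With Hspa1a and Hspa1b summed as 1 gene the latter was 62%. Hspb1, the sixth stress-induced gene, had no row. The stress-induced list thus ran from 1 gene in every cell (Hsp90aa1) to 1 gene in a single cell (Hspa1a).

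**Figure D2:**
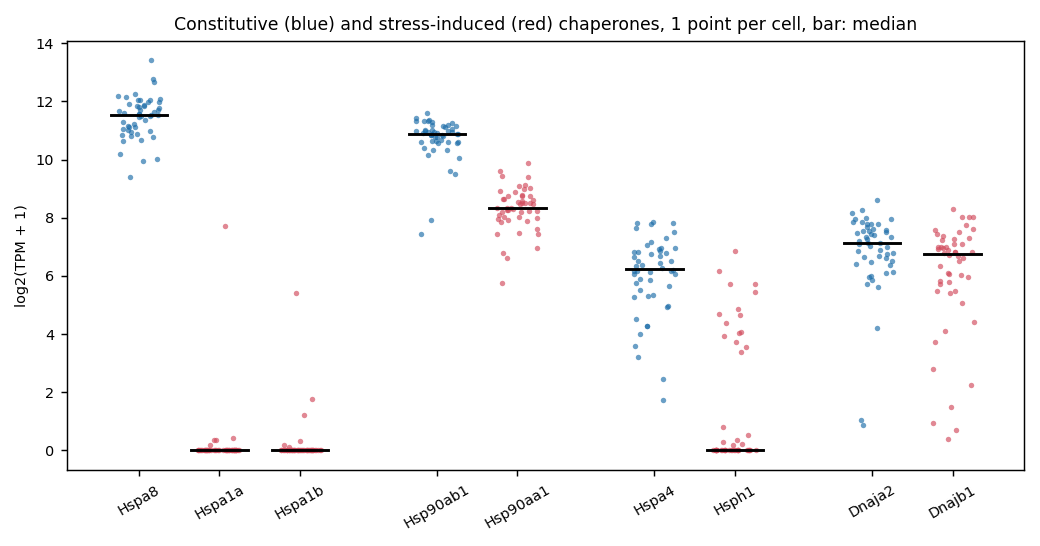
Levels on the log2(TPM + 1) scale (y axis) of 4 constitutive (blue) and 5 stress-induced (red) chaperone genes, with 1 point per cell for 50 cells and the median as a bar. Hspa1a and Hspa1b lie at or near 0 in all but a few cells, with cell 2-9 as the highest point of each, while Hsp90aa1 and Dnajb1 overlap the range of constitutive genes.

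The other Hsp70 genes lay between these ends or below them. Hspa14, a ribosome-associated Hsp70, was above TPM 1 in 47 cells (median 124 TPM), Hspa12b, an endothelial member of the family, in 29 (median 3.70 TPM), Hspa4l and Hspa13 in 24 each and Hspa2, known from spermatogenesis, in 8. The median share over the 7 genes of this list was 48%, and 2 of 7 were above TPM 1 in at least 25 cells (53.2% of all rows). Small heat shock genes, whose products hold unfolded proteins without ATP, had 2 rows. Hspb8, the partner of Bag3, passed TPM 1 in 21 cells (42%, 28.2% to 56.8%) and reached 434 TPM in cell 3-6, Hspb6 in 6 cells, and the other 5 of the list (Hspb1, Hspb2, Hspb3, Hspb7 and Hspb9) had no row and were not analysed here. Cryab, the related alpha-B crystallin, was listed at 0 in every cell.

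The CCT complex, made of rings of 8 different subunits, had the lowest median SD of log2(TPM + 1) among the lists of chaperones by role, 0.908. Of its genes, 7 fell under the symbol rule and Tcp1, the first subunit, did not, and Cct6b had no row. Of these 7, 6 were above TPM 1 in every cell, and the 16 chaperone genes found in every cell had a median SD of 0.914. The subunit medians were 579 TPM for Cct5, 545 for Cct7, 504 for Cct8, 486 for Cct4, 474 for Cct3, 437 for Cct6a and 262 for Cct2, a 2.21-fold range, with 341 TPM for Tcp1. Neighbours in this order down to Cct6a did not differ beyond the intervals of their medians, and each led its neighbour in between 23 and 28 of 50 cells.

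Within a cell the subunits were less even. All 7 were above TPM 1 in 47 cells and above 100 TPM in 35, and the highest subunit of a cell was a median of 4.25 times its lowest over the 49 cells with no subunit at 0. Cct5 was the highest in 14 cells, Cct4 in 9, Cct7 in 8, Cct3 and Cct8 in 7 each, Cct6a in 4 and Cct2 in 1. Cct7 had the smallest spread (207 to 1204 TPM, SD of log2 0.64) and Cct6a (0 to 1616 TPM, SD 2.26) and Cct3 (1.81 to 2258 TPM, SD 1.901) the widest. Some low cells were shared: Cct5 (37.5 TPM) and Cct8 (32.1 TPM) were both lowest in cell 4-1, and Cct7 was lowest in cell 4-6, where Cct6a was below TPM 1. The lowest cells of Cct2 (4-14), Cct3 (1-2), Cct4 (3-1) and Cct6a (2-13, listed at 0) differed. The sum of the 7 ran from 1391 TPM (cell 2-15) to 5684 TPM (cell 4-4) with a median of 3454 TPM, and its SD on the log2 scale was 0.38, below that of each subunit.

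**Figure D3:**
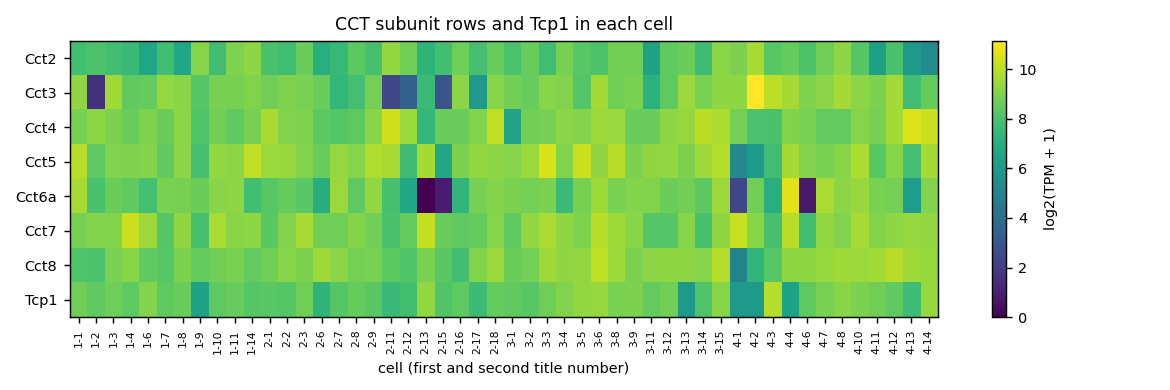
Level of each CCT subunit and of Tcp1 (rows) in each of the 50 cells (columns, named by their title numbers), with color giving log2(TPM + 1). The darkest tiles are low values of Cct6a (as in cell 2-13) and Cct3 (as in cell 1-2), and cell 2-15 is low for both.

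Correlations of the CCT subunits over the 50 cells were low. The median rho over their 21 pairs was 0.157, with a range of -0.183 (Cct2 and Cct8) to 0.434 (Cct5 and Cct6a), and 5 pairs were above 0.3. The median was 0.239 without the cells of first title number 1 and 0.076 with Pearson's correlation of log2(TPM + 1). Over all 990 pairs of the 45 chaperone genes found in at least 25 cells the median rho was 0.0477 and 6.77% of pairs were above 0.3, against 0.0427 and 4.77% over all pairs of rows found as often. The CCT pairs, with a median of 0.157 and 23.8% above 0.3, were low in size but above both of these. These correlations share the cells' gene numbers and the scaling to a common total, and they are descriptions only.

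In the endoplasmic reticulum both main chaperones were found in every cell. Hspa5 (BiP), the Hsp70 of this compartment, ran from 3.97 TPM (cell 4-6) to 1908 TPM (cell 4-8) with a median of 617 TPM, and Hsp90b1 (Grp94), its Hsp90, from 3.44 TPM (cell 4-6) to 896 TPM with a median of 393 TPM. Cell 4-6, which had the fewest genes, stood far below the others for both, since the next lowest values were 181 and 43.9 TPM. Their J proteins were found in fewer cells: Dnajb11 and Dnajc3 in 44 each (medians 83.64 and 25.03 TPM), Dnajc10 in 36, and Dnajb9 (ERdj4) and Dnajc1 in 34 each. Dnajb9, a target of Xbp1, reached 333 TPM and was among the most variable genes of the set (SD 3.06).

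All 12 genes of the unfolded protein response list were above TPM 1 in at least 25 cells, and 5 of 12 in all cells (53.2% and 7.15% of all rows). Xbp1, the factor that raises chaperone genes of this compartment, had a median of 544 TPM in 50 cells, Atf4 310 TPM in 49, and Ddit3 (Chop), which marks prolonged stress, 30.8 TPM in 31. Over cells, rho was 0.390 for Hspa5 and Dnajb9 (0.253 to 0.561 within the first title numbers), 0.347 for Hspa5 and Hsp90b1 (-0.143 to 0.613) and 0.471 for Hspa5 and Manf (0.081 to 0.836), a secreted factor of the same response. Xbp1 itself had a rho of 0.056 with Hspa5, -0.098 with Hsp90b1 and 0.039 with Dnajb9, and Hspa5 and Herpud1 had -0.095. These are transcript levels per gene, and the activity of the factor that Xbp1 encodes was not measured. Pairs were also taken among 14 chosen genes: Hspa5, Hsp90b1, Dnajb9, Dnajb11, Dnajc3, Sdf2l1, Hyou1, Pdia4, Pdia6, Calr, Herpud1, Xbp1, Creld2 and Manf. This choice leaves out Dnajc1 and Dnajc10 and, of the response list, Atf4, Atf6, Ddit3, Canx and Pdia3. Over its 91 pairs the median rho was 0.197, and 20 pairs (21.98%) were above 0.3. Over all pairs of rows found in at least 25 cells the values were 0.0427 and 4.77%. Sdf2l1, one of the 14, was found in 21 cells.

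Mitochondrial chaperones had a main set in nearly all cells and assistants in fewer. Hspe1 (Hsp10) was found in all 50 cells (32.1 to 1925 TPM, median 302), Hspd1 (Hsp60) in 49 (0.331 to 923 TPM, median 153) and Hspa9 (mortalin), the Hsp70 that pulls proteins into the organelle, in 49 (0 to 442 TPM, median 149). Of the J proteins, Dnajc19, a part of the import motor, was in 48 cells, Dnajc15 in 42, and Dnaja3 and Dnajc11 in 37 each. Hspd1 and Hspe1, which form 1 folding chamber and share the divergent promoter shown above, had a rho of only 0.211 over the 50 cells (-0.282 to 0.555 within the first title numbers), while Hspa9 and Hspd1 had 0.421 (0.082 to 0.930), which fell to 0.156 with 1 first title number left out. The latter was the highest of 15 pairs among Hspa9, Hspd1, Hspe1, Dnaja3 and the co-chaperone genes Trap1 and Grpel1, which lie outside the symbol rule. The median rho of these 15 pairs was 0.075, and only Hspa9 with Hspd1 was above 0.3. Pairs with Dnajc19, Dnajc15 or Dnajc11 were not among the 15. Counted by names made of the gene's symbol and -ps, the genome annotation holds 6 pseudogenes of Hspe1 and 5 of Hspd1. Hspa9, Dnajc19, Cct3 and Dnaja1 have 1 each by this count, so reads may be shared with those copies. Pseudogenes under other names were not counted for any chaperone gene, so other genes may share reads too. The annotations of Hspd1 and Hspe1 overlap by 112 bases on opposite strands, where reads counted without strand could go to either gene.

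The highest rho of the 990 pairs was 0.582, for Cct6a and Hspa9, and it was positive within each first title number (0.192 to 0.832). It was 0.490 with the number of genes per cell held constant by partial rank correlation. The lowest was -0.400, for Dnajc8 and Dnaja3.

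**Figure D4:**
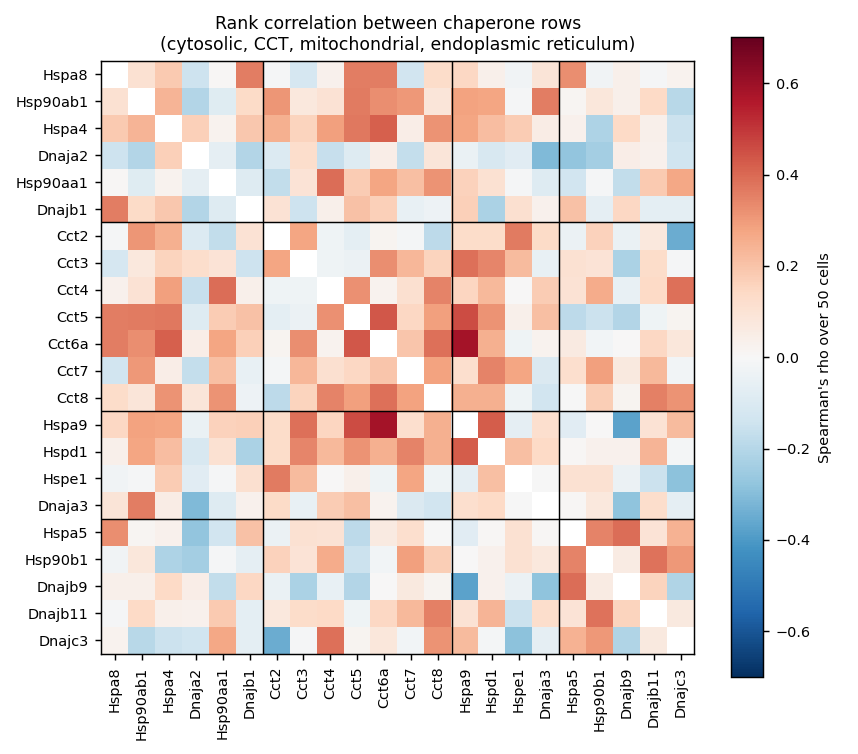
Spearman's rho over 50 cells (color, from -0.7 to 0.7) between 22 chaperone genes of the cytosol, the CCT complex, the mitochondria and the endoplasmic reticulum, separated by black lines in that order. Most tiles are pale, the darkest is Cct6a with Hspa9 (0.582), and Hspd1 with Hspe1 (0.211) is a weak one.

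The 39 J proteins, whose shared domain stirs Hsp70 to use ATP, ranged from all cells to none. In at least 25 cells 25 of them passed TPM 1, and 3 did so in every cell (53.2% and 7.15% of all rows), and the median share was 66%. The 3 were Dnajc8, which works with the spliceosome (76.3 to 1055 TPM, median 344), Dnajb6, which suppresses protein aggregation (median 191 TPM), and Dnaja1, a main Hsp70 partner of the cytosol (8.65 to 327 TPM, median 110). Dnaja2 followed in 49 cells, and Dnajc7, Dnajc19 and Dnajc2 (Zuotin-related factor of the ribosome) in 48 each. The rarest besides Dnajb13 and Dnajc28 were Dnajb3, Dnaja4 and Dnajc27, in 8 cells each.

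The spread over cells was near that of other rows found as often. The SD of log2(TPM + 1) had a median of 1.96 over the 45 chaperone genes in at least 25 cells, where the 6324 rows found as often had 2.165, and of 0.914 over the 16 in every cell, where all such rows had 1.00. Among these 16 it ran from 0.64 (Cct7) to 1.901 (Cct3), with 0.73 for Hspa8 and 0.76 for both Hsp90ab1 and Hsp90aa1. The SDs of the Hsp90 genes were nearly equal on the log2 scale, but the coefficient of variation of TPM was 0.322 for Hsp90ab1 and 0.483 for Hsp90aa1. The middle range from the lower to the upper quartile was 1562 to 2210 TPM for Hsp90ab1 and 256 to 430 TPM for Hsp90aa1, and Hsp90ab1 had single low cells at 171 and 240 TPM.

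Of the 30 chaperone genes found in 20% to 80% of the cells, the most variable was Dnajc9, a histone chaperone of dividing cells, which passed TPM 1 in 30 cells and reached 359 TPM (SD 3.18). Dnajb9 (3.06), Hspb11 (3.00), Dnaja3 (2.896), Dnajc4 (2.804), Dnajc11 (2.68), Dnajc17 and Hspbp1 (2.66 each), Dnajb4 (2.65) and Hspb8 (2.64) followed. All 10 were listed at 0 in at least 1 cell and exceeded 100 TPM in another. Dnajc4, for example, had a median of 0 and reached 370 TPM.

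**Figure D5:**
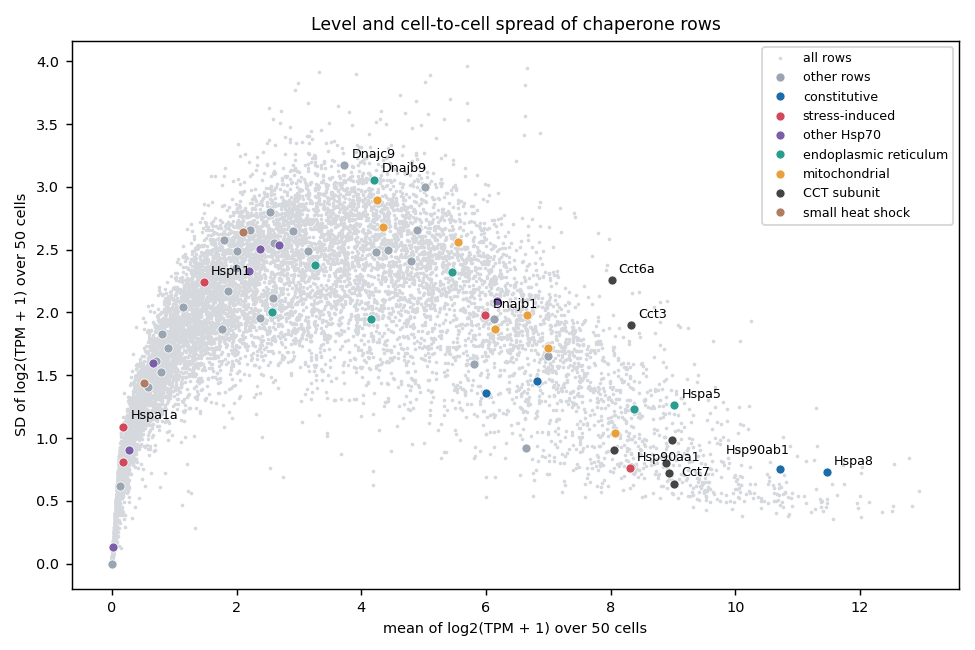
Mean (x axis) against SD (y axis) of log2(TPM + 1) over 50 cells, with all 11879 rows in grey and the 70 chaperone genes colored by role. Hspa8 and Hsp90ab1 lie at the lower right, high and even (SD 0.73 and 0.76), Dnajc9 and Dnajb9 near the top (3.18 and 3.06), and Hspa1a at the lower left, at 0 in most cells.

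Co-chaperones and regulators lay outside the symbol rule. Of the 29 genes of the list with a row, 26 were above TPM 1 in at least 25 cells and 7 in all (53.2% and 7.15% of all rows). The Hsp90 partners Cdc37 (which brings kinases) and Ptges3 (p23) were in 50 cells at medians of 218 and 248 TPM, Stip1 (Hop), the bridge from Hsp70 to Hsp90, in 48 at 262 TPM, and Stub1 (Chip), the ligase that marks Hsp70 clients for decay, in 50 at 221 TPM. Hsf1 was in 40 cells (median 51.2 TPM), Hsf2 in 36 (3.204 TPM) and Bag3 in 44 (18.5 TPM). Hsf1 was above TPM 1 in 32 of the 42 cells in which Hspa1a and Hspa1b were listed at 0. It was also above TPM 1 in all 8 cells with either of the pair above 0, and the difference was not tested. HSF1 is known to be controlled mainly as a protein, which these data do not measure.

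Immediate-early genes, which answer many stimuli before any new protein is made, were above TPM 1 in most cells. Fos ran from 1.29 to 4227 TPM (median 184) and was above TPM 1 in 50 cells, as were Junb and Ier2, with Jun in 48, Egr1 in 44, Atf3 in 40 and Fosb in 12. Their sum ran from 266 to 7810 TPM. Over the 35 pairs of these 7 genes with Hspa8, Dnajb1, Hsp90aa1, Hsph1 and Hspa5, rho ran from -0.212 to 0.262, and 0 were above 0.3. Over 55 pairs among 11 constitutive, stress-induced and partner genes the median rho was 0.049, and the highest was 0.383, for Hsp90ab1 and Hsf1.

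The rows whose levels over cells were most like Hspa8 were not chaperones. Among 9103 rows above TPM 1 in at least 20% of the cells, Litaf, which encodes a protein of late endosomes, had the highest rho, 0.685 (0.555 to 0.860 within the first title numbers, and 0.637 to 0.732 with each number left out), and Actg1, Ralb, Tcf7l2 and Eif1a followed at 0.548 to 0.499. The 95th percentile of all rows was 0.271. Litaf was picked by its rho in these same cells, so its ranges give no separate support. The nearest chaperones were Cct5 (0.357), Cct6a and Dnajb1 (0.356 each) and Hspa5 (0.323). For the sum of Hspa1a and Hspa1b the highest were Mrm1, Tctn1, Cse1l, Gas8 and Ebag9 at 0.493 to 0.464, but 42 cells tie at 0, so this order rests on 8 cells.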

How the data were processed

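cDNA of each sorted cell was amplified with the Discover-sc WTA Kit V2, for which no molecular identifiers are named, checked by qPCR of B2m and Gapdh, and sequenced. The series text and the study's methods name different sequencers. The deposited values are TPM per gene and cell, which the authors made with HISAT2 2.1.0 (alignment to mm10), SAMtools 0.1.19 and StringTie 1.3.4, as listed in the submitters' processing notes. How the 11879 rows were selected is not given in the sources used here, and column totals ran from 942975 to 970894 TPM. Handling of reads shared by gene copies is not given in the sources used here.

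From these values a gene was counted in a cell above TPM 1. The study applied that level to choose genes for a map of single cells of another line, not to call a gene in a cell. Shares were given with exact Clopper-Pearson 95% intervals (SciPy 1.17.1), medians with exact order-statistic intervals, and levels as log2(TPM + 1). Spearman's rho describes the 50 cells and has no p. All 70 genes were matched by symbol to GENCODE M21 on GRCm38, the assembly of mm10, and 58 to RefSeq promoters. Coding identity was taken from the longest open reading frame of each gene's transcripts. The functions were tested on simulated data.

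The members and lists were chosen with earlier results of these data known. Named were the role lists, the 10 most abundant and 10 most variable members, and the 5 rows most like Hspa8 and most like the sum of Hspa1a and Hspa1b. Other names, and the look at cell 2-9, followed from their values. No cell was left out, no cells were clustered, and no doublet caller was run. Alternatives were levels of TPM 0, 5 and 10, a pseudocount of 0.1, the omission of 1 first title number at a time or of cells with fewer than 5000 genes, rescaling without ribosomal protein genes, and others given in the closing section.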

Additional observations from a re-analysis of the deposited data

How the results depend on the processing

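Of 147 recomputed values of 14 results, 7 moved past their limits, which were the exact interval for a share or median, 1.5 times for a count, and the SD over the 4 first title numbers for an SD or rho. The last of these is wide, and the share of Hspa8 is at its maximum, so values within limits say little about stability for those results. The median log2 difference of Hspa8 minus Hspa1a plus Hspa1b became 14.81 with a pseudocount of 0.1, since the sum is 0 in 42 cells, and 11.69 with TPM rescaled without the 90 ribosomal protein rows. That rescaling raised the summed chaperone share to 1.58%, and leaving out Hspa8 lowered it to 1.04%. The median share of stress-induced genes became 62% with Hspa1a and Hspa1b summed. With each first title number left out, the share of Hspa1a ran from 0% to 2.703%, because its only cell above TPM 1 was cell 2-9, and it was 0% without that cell. Leaving out cell 2-9 lowered the SD of log2(TPM + 1) of Hspa1a plus Hspa1b from 1.16 to 0.33. Over the rank-based alternatives the rho of Hspa1a and Hspa1b, 0.513 as the main value, ran from 0.377 to 0.750. Pearson's correlation of log2(TPM + 1) was 0.934 for this pair. Only 3 cells had both genes above 0 and 42 had both at 0, so these values rest on few cells. The rho of Hspd1 and Hspe1 ran from 0.070 to 0.345. The median rho of CCT pairs ran from 0.119 to 0.239, and it was 0.076 with Pearson's correlation. Leaving out cell 4-6 moved no result past its limit. The omissions of cells 2-9 and 4-6 were chosen after seeing the data. No paired analysis was possible because all cells belonged to 1 group. Depth is unknown from TPM, so a gene listed at 0 cannot be told from one missed in amplification or sequencing, and with 50 cells a share of up to 6% can go unseen.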
